A study of Homo sapiens with 15 samples.

Results

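The LIN28 and let-7 heterochronic axis was followed here as 9 genes chosen by name, LIN28A, LIN28B, HMGA2, HMGA1, IGF2BP1, IGF2BP2, IGF2BP3, TRIM71 and ARID3A. They are 9 of the 17999 gene symbols in the deposited table, and all 9 were among the 14129 symbols that reached 1 FPKM in at least 1 library and were tested. FPKM counts a gene's fragments per kilobase of its transcript and per mapped fragment of the library, a level per length that can be compared between genes. HMGA2, HMGA1, IGF2BP1, IGF2BP2, IGF2BP3 and ARID3A reached 1 FPKM in all 15 libraries, LIN28B and TRIM71 in 13, and LIN28A in 9.

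Messenger RNA was read from 15 cultures of wild-type human cells derived from HUES9 and H1, both established embryonic stem cell (ESC) lines, each of which stands for 1 cell line and not for a population. Neuromesodermal progenitors are cells of the embryonic tail that can form spinal cord and paraxial mesoderm, and the study made self-renewing ones (srNMPs) and differentiated them into neurons and skeletal muscle. The groups were uninduced ESCs (1 HUES9 library), srNMPs at passages 8 and 25, progenitors of neurons after 7 days of induction by conditions labelled RASS and RABC, ventral and dorsal neurons, and muscle at 40 and at 50 days (1 HUES9 library each). The srNMPs, the 7-day cells and the neurons carry the treatment label neural induction, the muscle carries skeletal muscle induction, and no other treatment or altered gene is given. The 6 groups other than ESCs and muscle held 1 HUES9 and 1 H1 library each. The labels do not explain RASS and RABC, and do not say whether cultures of 1 line were independent, so p-values measure the spread between these libraries only. ESC and muscle libraries have no replicate in their group and are assumed to vary like the others.

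Summed FPKM ranged from 290306 to 421109 over the libraries. A rough relative depth, estimated from the smallest values, ranged from 0.959 to 1.045 times the mean library. Both passage 25 srNMP libraries, dorsal HUES9 neurons and day 40 muscle came out at the same 1.00093, near the start value of the estimate. The range may therefore be too narrow, and it does not show that the depths were alike. Absolute depth is unknown. Libraries of 2 cultures went against their cell line labels: in the RASS pair the HUES9 minus H1 difference across genes correlated with that of the other 5 groups at r = -0.53 to -0.17, against 0.069 to 0.38 in the 10 pairs among those groups. They are called by their labels, and log2 changes between 7-day cells and other states are also given without them. The HUES9 library of srNMPs at passage 8 had the highest summed FPKM. IGF2BP1, IGF2BP2, IGF2BP3, LIN28B, HMGA1, TRIM71 and ARID3A were each at their lowest srNMP level in it, some by small margins. LIN28A and, by little, HMGA2 were at their highest srNMP level in it. Most marker lists were highest in the state they name: summed pluripotency markers stood at 2003 FPKM in ESCs and at 1.82 to 63.6 FPKM elsewhere, neuromesodermal markers at 193 to 587 FPKM in srNMPs and 0.419 to 141 FPKM elsewhere, pan-neuronal markers at 1721 to 2624 FPKM in neurons and 182 to 1130 FPKM elsewhere, and myogenic and sarcomere markers at 2854 to 4383 FPKM in muscle and 1.04 to 31.9 FPKM elsewhere. The sum of 9 neural progenitor markers, VIM and NES among them, did not separate the states in this way, with 392 FPKM in ESCs, 1306 to 1663 in srNMPs, 1753 to 2387 in 7-day cells, 1148 to 1999 in neurons and 2461 to 2683 in muscle. The muscle libraries also held 11404 to 18546 FPKM of 7 fibroblast markers, against 0.864 to 22.1 FPKM in the other libraries. All 8 proliferation markers were present at 1 FPKM or more in every library, but their sum was 740 to 941 FPKM in srNMPs, 816 to 904 FPKM in 7-day cells, 125 to 593 FPKM in neurons and 113 to 120 FPKM in muscle. In such bulk samples fewer cells of a type and less RNA per cell cannot be told apart, and the part of cell mixture and of proliferation in the values that follow was not tested.

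LIN28A and LIN28B are RNA-binding proteins that hold back let-7, a family of microRNAs that accumulates as embryonic cells differentiate. They bind let-7 precursors, block their cutting into mature microRNA and, for LIN28A, recruit enzymes that add uridines to the precursor and mark it for decay. Mature let-7 pairs through its seed with the 3′ untranslated regions (UTRs) of messenger RNAs and lowers their output, and its known targets include both LIN28 genes, so that the axis acts as a switch in developmental timing, first described in the worm Caenorhabditis elegans. The libraries hold messenger RNA, and mature let-7 was not measured in them.

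The sequences of let-7 are shown because the family shares 1 seed, the stretch that pairs with targets. RefSeq (GRCh38.p14) lists 9 mature let-7 family names from 12 loci, and all 9 share the seed GAGGUAG at bases 2 to 8. Of these, 5 are printed 5′ to 3′ with the seed in capitals.
hsa-let-7a-5p: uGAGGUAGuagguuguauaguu
hsa-let-7b-5p: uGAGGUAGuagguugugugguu
hsa-let-7d-5p: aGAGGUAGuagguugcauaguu
hsa-let-7g-5p: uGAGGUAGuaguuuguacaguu
hsa-miR-98-5p: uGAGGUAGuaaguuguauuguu
Outside the seed they differ in the middle and 3′ part, and let-7d also in its first base.

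LIN28 proteins are known to contact the motif GGAG in the loop of let-7 precursors, so the stretch between the mature arms of each hairpin was searched for those 4 letters on the transcribed strand. GGAG was found in 9 of 12 let-7 family hairpins, and it stood between the arms in 60 of the 741 human hairpins with both arms listed (8.1%). A hairpin with the motif and one without it are printed, with GGAG in capitals where present. MIRLET7G lies at chr3:52268278-52268361 on the minus strand and MIRLET7B at chr22:46113686-46113768 on the plus strand of GRCh38.p14.
MIRLET7G: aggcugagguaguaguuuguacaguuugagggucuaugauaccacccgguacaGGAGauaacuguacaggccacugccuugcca
MIRLET7B: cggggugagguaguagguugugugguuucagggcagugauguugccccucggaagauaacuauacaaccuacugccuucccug
The letters were absent from the stretch searched in MIRLET7A3, MIRLET7B and MIR98. For MIRLET7F2, whose 3′ arm is not listed, the search ran to the end of the hairpin.

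The complement of the seed, CTACCTC, was then searched on the sense strand of the 3′ UTR of 1 principal transcript per gene (GENCODE v29, GRCh38). A site of 7 bases was found in 8.82% of 18437 genes, and one of 8 bases, CTACCTCA, which adds an A opposite the first base of let-7, in 3.35%. All 9 genes of the axis held at least 1 site, 24 in all, and 8 of the 9 held one of 8 bases; they are known as let-7 targets, so the matches describe them and test nothing. The first site of 8 bases of each gene, and for HMGA1 its only site of 7, is printed with 14 bases before it and with the match in capitals, and its position counts from the first base of the 3′ UTR.
LIN28A: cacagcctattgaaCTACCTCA
LIN28B: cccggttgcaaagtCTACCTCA
HMGA2: ccaacgttcgatttCTACCTCA
HMGA1: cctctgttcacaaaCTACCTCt
IGF2BP1: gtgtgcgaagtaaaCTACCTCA
IGF2BP2: acacacagaagaagCTACCTCA
IGF2BP3: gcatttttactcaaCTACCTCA
TRIM71: acattgcttaagtcCTACCTCA
ARID3A: ctgcctatctctgtCTACCTCA
These sites begin at base 905 of 3264 in LIN28A, 44 of 4549 in LIN28B, 21 of 3003 in HMGA2, 960 of 1347 in HMGA1, 1632 of 6206 in IGF2BP1, 1304 of 1792 in IGF2BP2, 560 of 2153 in IGF2BP3, 172 of 6015 in TRIM71 and 2461 of 3869 in ARID3A. TRIM71 held 6 sites, LIN28B, HMGA2 and IGF2BP1 held 4 each, ARID3A held 2 and the other 4 genes held 1. Among all genes 0.0651% held 4 or more. A longer UTR gives more room: among genes with a UTR within 20% of the same length, at least 1 site was held by 29.09% for TRIM71, 16.18% for LIN28A and 8.28% for HMGA1, and 6 or more by 0.134% for TRIM71.

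**Figure D1:**
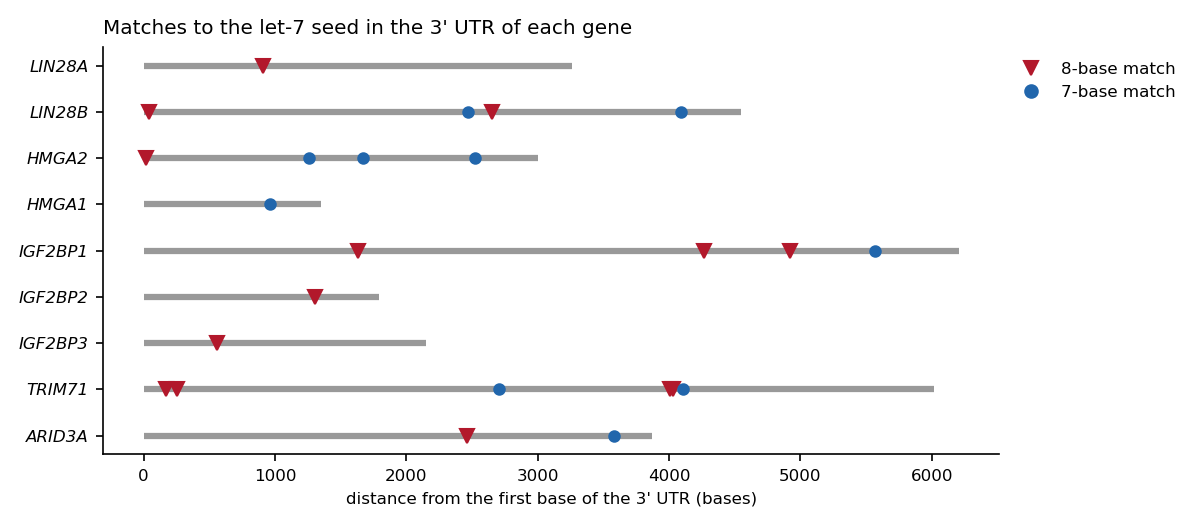
Matches to the let-7 seed along the 3′ UTR of each gene (grey line; distance from the first UTR base, in bases). Triangles mark matches of 8 bases and circles those of 7; TRIM71 has 6 sites, and HMGA1 has 1 site, of 7 bases.

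LIN28A had the widest range of the 9 genes. It was abundant in ESCs and srNMPs and lay under 1 FPKM in all neurons and muscle. It stood at 477 FPKM in ESCs, at 337 (HUES9) and 261 (H1) FPKM in srNMPs of passage 8, and at 235 and 271 FPKM in srNMPs of passage 25. In the 7-day cells it stood at 21.3 and 72.4 FPKM in the libraries labelled RASS HUES9 and RASS H1, and at 101 and 15.7 FPKM in RABC HUES9 and RABC H1. In neurons it stood at 0.284 and 0.976 FPKM (ventral, HUES9 and H1) and at 0.150 and 0.260 FPKM (dorsal), and in muscle at 0.115 FPKM on day 40 and 0.0746 FPKM on day 50. The 5 states did not overlap in any library, in the order ESC, srNMP, 7-day cells, neurons and muscle. The last step was small, from 0.150 FPKM in the lowest neuron library to 0.115 FPKM in the higher muscle library.

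LIN28A fell in neurons and in muscle, and its change at 7 days missed the threshold. All log2 changes are on the log2(FPKM + 1) scale, which understates changes of weakly expressed genes, and a gene is said to rise, fall or be called where limma with Benjamini-Hochberg adjustment over 14129 genes gave an adjusted p under 0.05. LIN28A fell by 7.63 ± 0.61 in neurons relative to srNMPs (SE, adjusted p = 0.000208) and fell by 8.0 ± 0.78 in muscle relative to srNMPs (adjusted p = 0.000228). Between 7-day cells and srNMPs its log2 change was -2.75 ± 0.61 (95% confidence interval -4.18 to -1.32, adjusted p = 0.0581), with 52.7 ± 41.3 FPKM in 7-day cells and 276 ± 43.3 FPKM in srNMPs (SD, n = 4 each). Without both RASS libraries that change was -2.73 ± 0.64 (adjusted p = 0.167), and with their line labels exchanged -2.75 ± 0.53 (adjusted p = 0.0346). Without the HUES9 library of RABC, the highest 7-day library, it was -3.52 ± 0.38. Over 24 alternatives the 7-day change of LIN28A ran from -3.52 to -1.98, and it was called in 3 of them. In srNMPs relative to the single ESC library the change was -0.77 ± 0.99 (95% interval -3.11 to 1.56, adjusted p = 0.659). Muscle relative to neurons gave no call for LIN28A, with a change of -0.36 ± 0.78 (95% interval -2.21 to 1.48, adjusted p = 0.727).

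LIN28B, the paralog that also holds back let-7, lay lower than LIN28A in ESCs and srNMPs, and above it in all neurons. It stood at 48.2 FPKM in ESCs, 27.4 and 37.7 FPKM in HUES9 and H1 srNMPs of passage 8, and 27.8 and 28.7 FPKM at passage 25. The 7-day cells held 22.4 and 30.5 FPKM (RASS HUES9 and H1) and 24.8 and 13.2 FPKM (RABC HUES9 and H1). Neurons held 1.74 and 3.40 FPKM (ventral HUES9 and H1) and 2.41 and 1.53 FPKM (dorsal HUES9 and H1), and muscle held 0.135 and 0.0935 FPKM on days 40 and 50. Levels of 7-day cells and srNMPs overlapped, with a log2 change of -0.45 ± 0.26 (95% interval -1.07 to 0.17, adjusted p = 0.339; -0.70 ± 0.34 without both RASS libraries, adjusted p = 0.424), while neurons and muscle lay below every earlier library. LIN28B fell by 2.84 ± 0.26 in neurons relative to 7-day cells (limma, adjusted p = 0.000687; change -2.59 ± 0.34 without both RASS libraries, adjusted p = 0.00508), fell by 3.29 ± 0.26 in neurons relative to srNMPs (adjusted p = 0.000215), and fell by 1.49 ± 0.34 in muscle relative to neurons (adjusted p = 0.0105). The last call was lost when the fit held neuron and muscle libraries only (adjusted p = 0.0725).

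Within the LIN28 pair the share held by LIN28A went down along the neural series. LIN28A made up 90.8% of the summed LIN28A and LIN28B FPKM in ESCs, 87.4% to 92.5% in srNMPs, 48.8% to 80.4% in 7-day cells and 5.86% to 22.3% in neurons. In muscle it made up 44.4% to 46.0% of a sum of only 0.168 to 0.250 FPKM. These shares are a description without a test. Antisense genes are annotated at LIN28B and at IGF2BP2, and since strand use in counting is not stated, reads of either strand may be in their levels.

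**Figure D2:**
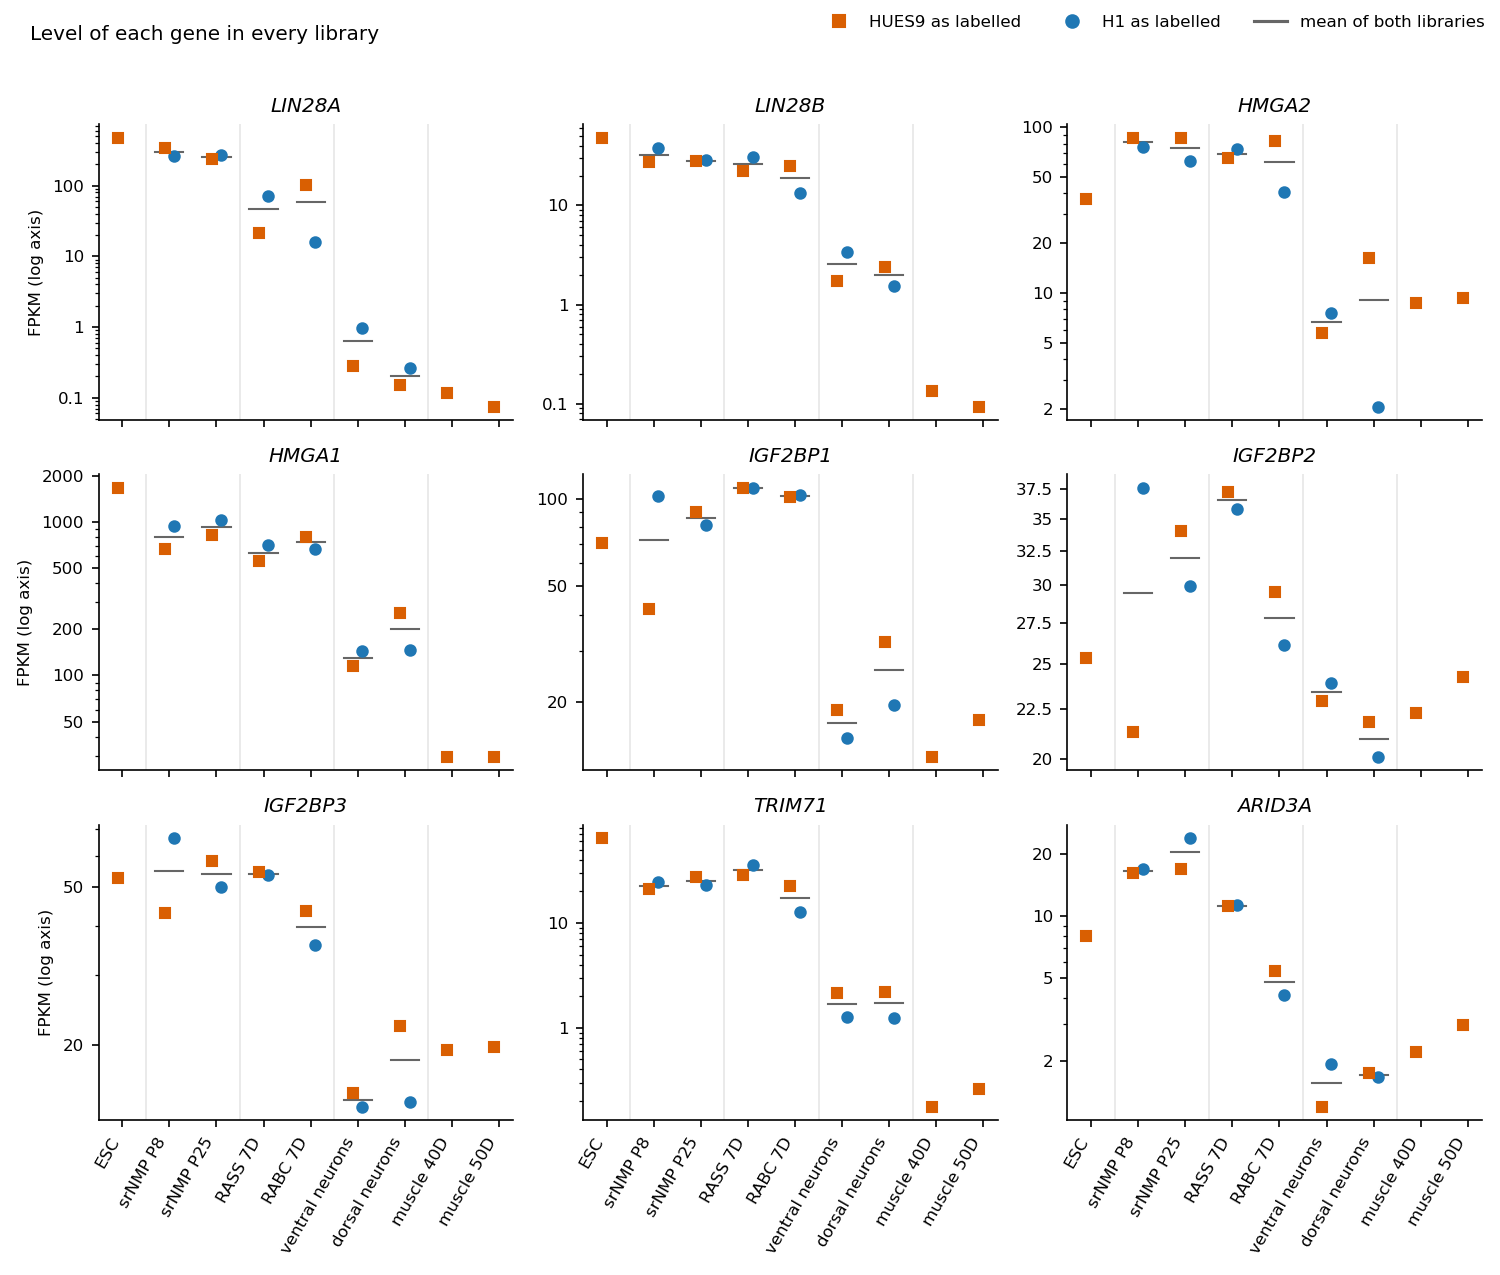
FPKM (log axis) of each gene in every library, by group; squares are HUES9 and circles H1 as labelled, and a bar marks the mean where a group has both. LIN28A, LIN28B and TRIM71 reach below 1 FPKM in muscle, while IGF2BP2 stays between 20.1 and 37.6 FPKM in all libraries.

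HMGA2, an architectural chromatin protein of embryonic cells and a classic let-7 target, was higher in srNMPs and 7-day cells than in the ESC library and then dropped in neurons. It stood at 36.8 FPKM in ESCs, at 86.7 (HUES9) and 76.2 (H1) FPKM in srNMPs of passage 8 and at 86.7 and 63.2 FPKM at passage 25. The 7-day cells held 65.3 and 73.8 FPKM (RASS HUES9 and H1) and 82.3 and 41.0 FPKM (RABC HUES9 and H1). Neurons held 5.73 and 7.57 FPKM (ventral HUES9 and H1) and 16.2 and 2.06 FPKM (dorsal HUES9 and H1), and muscle held 8.75 and 9.30 FPKM on days 40 and 50. No ESC, srNMP or 7-day library overlapped with neurons or muscle, and muscle lay within the range of the neurons. HMGA2 fell by 3.40 ± 0.44 in neurons relative to srNMPs (limma, adjusted p = 0.00103) and fell by 3.27 ± 0.57 in muscle relative to srNMPs (adjusted p = 0.00306). Its srNMP minus ESC change was 1.35 ± 0.72 (95% interval -0.34 to 3.05, adjusted p = 0.255) and its muscle minus neurons change 0.13 ± 0.57 (95% interval -1.21 to 1.48, adjusted p = 0.865).

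HMGA1, the paralog of HMGA2 and a like chromatin protein, was the most abundant of the 9 genes in every library and fell in neurons and in muscle. It is annotated with several processed pseudogenes of near-identical sequence, and how the authors' counting assigned shared reads is not stated, so its level is uncertain. It stood at 1672 FPKM in ESCs and at 664, 945, 820.4 and 1034 FPKM in the srNMP libraries (passage 8 HUES9 and H1, passage 25 HUES9 and H1). The 7-day cells held 559 to 805 FPKM, neurons 115 and 144 FPKM (ventral HUES9 and H1) and 257 and 146 FPKM (dorsal HUES9 and H1), and both muscle libraries 29.5 FPKM. ESCs, progenitors, neurons and muscle form separate ranges, and srNMPs overlap with 7-day cells. HMGA1 fell by 2.43 ± 0.23 in neurons relative to srNMPs (limma, adjusted p = 0.000347), fell by 4.77 ± 0.30 in muscle relative to srNMPs (adjusted p = 2.12e-05) and fell by 2.35 ± 0.30 in muscle relative to neurons (adjusted p = 0.000755). Its change at 7 days relative to srNMPs was -0.33 ± 0.23 (95% interval -0.87 to 0.21, adjusted p = 0.412), and -0.22 ± 0.29 (adjusted p = 0.781) without both RASS libraries.

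The 3 IGF2BP genes encode RNA-binding proteins that bind and stabilise messenger RNAs such as those of IGF2 and MYC, and IGF2BP1 and IGF2BP3 are largely shut off in adult tissues. IGF2BP1 stood at 70.6 FPKM in ESCs, at 41.7 (HUES9) and 102 (H1) FPKM in srNMPs of passage 8, and at 90.0 and 81.6 FPKM at passage 25. All 4 libraries of 7-day cells lay close together, at 109 and 109 FPKM (RASS HUES9 and H1) and at 102 and 103 FPKM (RABC HUES9 and H1). Neurons held 18.7 and 15.04 FPKM (ventral HUES9 and H1) and 32.1 and 19.4 FPKM (dorsal HUES9 and H1), and muscle held 12.9 and 17.3 FPKM on days 40 and 50. Neurons and muscle overlapped, and both lay below every earlier library. IGF2BP1 fell by 1.82 ± 0.29 in neurons relative to srNMPs (limma, adjusted p = 0.00209) and fell by 2.24 ± 0.37 in muscle relative to srNMPs (adjusted p = 0.00247). The muscle call was lost when only srNMP and muscle libraries were fitted (adjusted p = 0.0982).

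IGF2BP3 had a similar course at lower levels. ESCs held 52.6 FPKM, the srNMP libraries 43.1, 66.5, 58.2 and 49.9 FPKM (passage 8 HUES9 and H1, passage 25 HUES9 and H1), and the 7-day cells 54.5 and 53.5 FPKM (RASS HUES9 and H1) and 43.6 and 35.8 FPKM (RABC HUES9 and H1). Neurons held 15.1 and 13.9 FPKM (ventral HUES9 and H1) and 22.3 and 14.3 FPKM (dorsal HUES9 and H1), and muscle held 19.4 and 19.7 FPKM on days 40 and 50. Levels in neurons and muscle overlapped with each other but with no earlier library. IGF2BP3 fell by 1.68 ± 0.18 in neurons relative to srNMPs (limma, adjusted p = 0.000543) and fell by 1.46 ± 0.24 in muscle relative to srNMPs (adjusted p = 0.00227), the second call again lost with only those libraries in the fit (adjusted p = 0.105).

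IGF2BP2, the family member known to persist in adult tissue, was the narrowest of the 9 genes, with a highest level 1.87 times its lowest. ESCs held 25.3 FPKM, and the srNMPs 21.3 (HUES9) and 37.6 (H1) FPKM at passage 8 and 34.0 and 29.9 FPKM at passage 25. The 7-day cells held 37.3 and 35.8 FPKM (RASS HUES9 and H1) and 29.5 and 26.1 FPKM (RABC HUES9 and H1). Neurons held 22.9 and 23.9 FPKM (ventral HUES9 and H1) and 21.8 and 20.1 FPKM (dorsal HUES9 and H1), and muscle held 22.3 and 24.2 FPKM on days 40 and 50. The neurons and muscle overlapped with srNMPs through the HUES9 library of passage 8 alone, and the neurons lay below all 7-day cells. The change of IGF2BP2 was -0.43 ± 0.17 in neurons relative to srNMPs (95% interval -0.83 to -0.02, limma, adjusted p = 0.0742) and -0.33 ± 0.22 in muscle relative to srNMPs (95% interval -0.86 to 0.19, adjusted p = 0.259). Without that srNMP library the changes were -0.65 ± 0.09 (adjusted p = 0.00304) and -0.63 ± 0.11 (adjusted p = 0.0062), and both were called. In neurons relative to 7-day cells the change was -0.51 ± 0.17 (adjusted p = 0.0548), and -0.51 ± 0.08 (adjusted p = 0.00456) without that srNMP library. Without both RASS libraries it was -0.31 ± 0.23 (adjusted p = 0.342).

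Among the IGF2BP genes the share of IGF2BP1 was smaller, and that of IGF2BP2 larger, in neurons and muscle than in 7-day cells. IGF2BP1 made up 39.3% to 50.5% of the summed FPKM of the 3 genes in srNMPs, 54.3% to 62.5% in 7-day cells, 28.4% to 42.1% in neurons and 23.7% to 28.2% in muscle. IGF2BP2 made up 18.2% to 20.1% in srNMPs, 15.8% to 18.6% in 7-day cells, 28.6% to 45.2% in neurons and 39.6% to 40.8% in muscle. The neuron library with the smallest IGF2BP2 share was the dorsal HUES9 one. The shares were not tested.

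**Figure D3:**
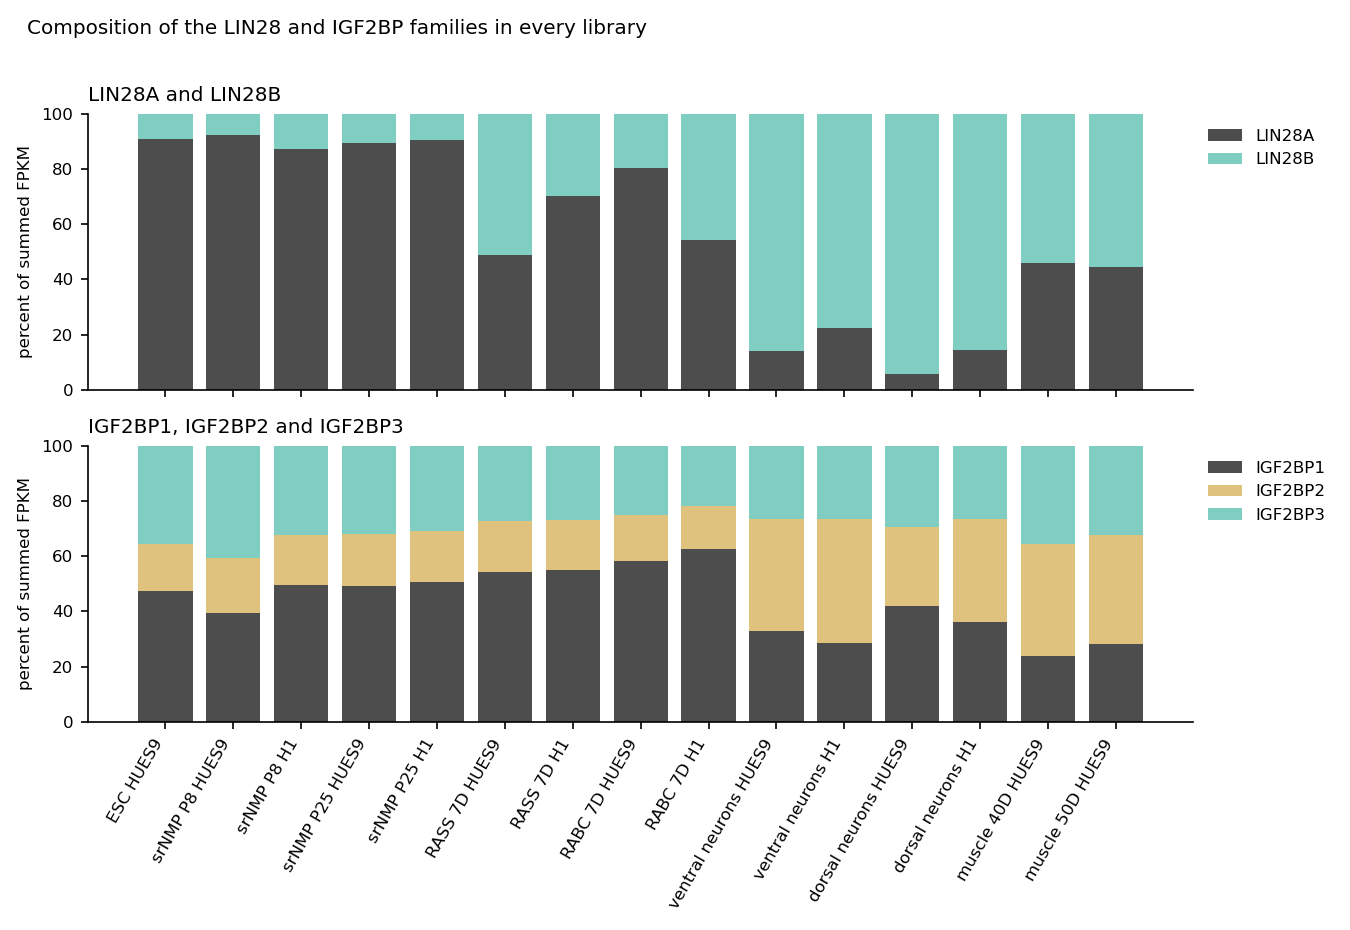
Share of each gene in the summed FPKM of its family (percent) in every library, LIN28 above and IGF2BP below. LIN28A holds 87.4% to 92.5% in srNMPs and 5.86% to 22.3% in neurons, and IGF2BP2 holds 18.2% to 20.1% in srNMPs and 39.6% to 40.8% in muscle.

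TRIM71, a ubiquitin ligase and RNA-binding repressor that is the human form of worm LIN-41, another classic let-7 target, lay lower in all srNMPs than in ESCs and near 0 in muscle. It stood at 64.7 FPKM in ESCs and at 20.9, 24.4, 27.5 and 23.3 FPKM in the srNMP libraries (passage 8 HUES9 and H1, passage 25 HUES9 and H1). The 7-day cells held 28.7 and 35.8 FPKM (RASS HUES9 and H1) and 22.4 and 12.6 FPKM (RABC HUES9 and H1). Neurons held 2.14 and 1.26 FPKM (ventral HUES9 and H1) and 2.21 and 1.24 FPKM (dorsal HUES9 and H1), and muscle held 0.175 and 0.261 FPKM on days 40 and 50. The RASS libraries reached above, and the RABC H1 library below, the range of the srNMPs, and neurons and muscle formed separate lower ranges. TRIM71 fell by 3.22 ± 0.20 in neurons relative to srNMPs (limma, adjusted p = 0.000121), fell by 4.48 ± 0.26 in muscle relative to srNMPs (adjusted p = 1.58e-05) and fell by 1.26 ± 0.26 in muscle relative to neurons (adjusted p = 0.0072). It fell by 1.28 ± 0.33 in srNMPs relative to the ESC library (adjusted p = 0.0417), a call that held in 12 of 24 alternatives, with adjusted p from 0.0203 to 0.189. It was lost on leaving out the HUES9 library of passage 8, either library of passage 25 or any 1 neuron library.

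ARID3A, a DNA-binding factor of the ARID family and a let-7 target, was higher in srNMPs than in any other state and was the 1 gene of the axis called at 7 days. It stood at 8.003 FPKM in ESCs and at 16.2, 16.8, 17.0 and 23.9 FPKM in the srNMP libraries (passage 8 HUES9 and H1, passage 25 HUES9 and H1). The 7-day cells held 11.2 and 11.4 FPKM (RASS HUES9 and H1) and 5.42 and 4.15 FPKM (RABC HUES9 and H1). Neurons held 1.19 and 1.93 FPKM (ventral HUES9 and H1) and 1.74 and 1.67 FPKM (dorsal HUES9 and H1), and muscle held 2.19 and 2.97 FPKM on days 40 and 50. The srNMPs overlapped with no other state, the RASS libraries lay between them and the RABC libraries, and muscle lay above the neurons in both libraries. ARID3A rose by 1.04 ± 0.26 in srNMPs relative to ESCs (limma, adjusted p = 0.0371), a call that held in 11 of 24 alternatives (adjusted p 0.0179 to 0.291). It was lost on leaving out the HUES9 library of passage 8, the H1 library of passage 25, any 1 library of 7-day cells or either dorsal neuron library. It fell by 1.20 ± 0.16 at 7 days relative to srNMPs (adjusted p = 0.0204), which held in 16 of 24 alternatives (adjusted p 0.0099 to 0.0874). That call was lost on leaving out the HUES9 library of passage 8, the H1 library of passage 25, RABC H1, RASS HUES9 or either dorsal neuron library. Without both RASS libraries that change was -1.74 ± 0.21 (adjusted p = 0.0618). It fell by 2.88 ± 0.16 in neurons relative to srNMPs (adjusted p = 9.18e-05) and fell by 2.38 ± 0.21 in muscle relative to srNMPs (adjusted p = 0.000132).

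**Figure D4:**
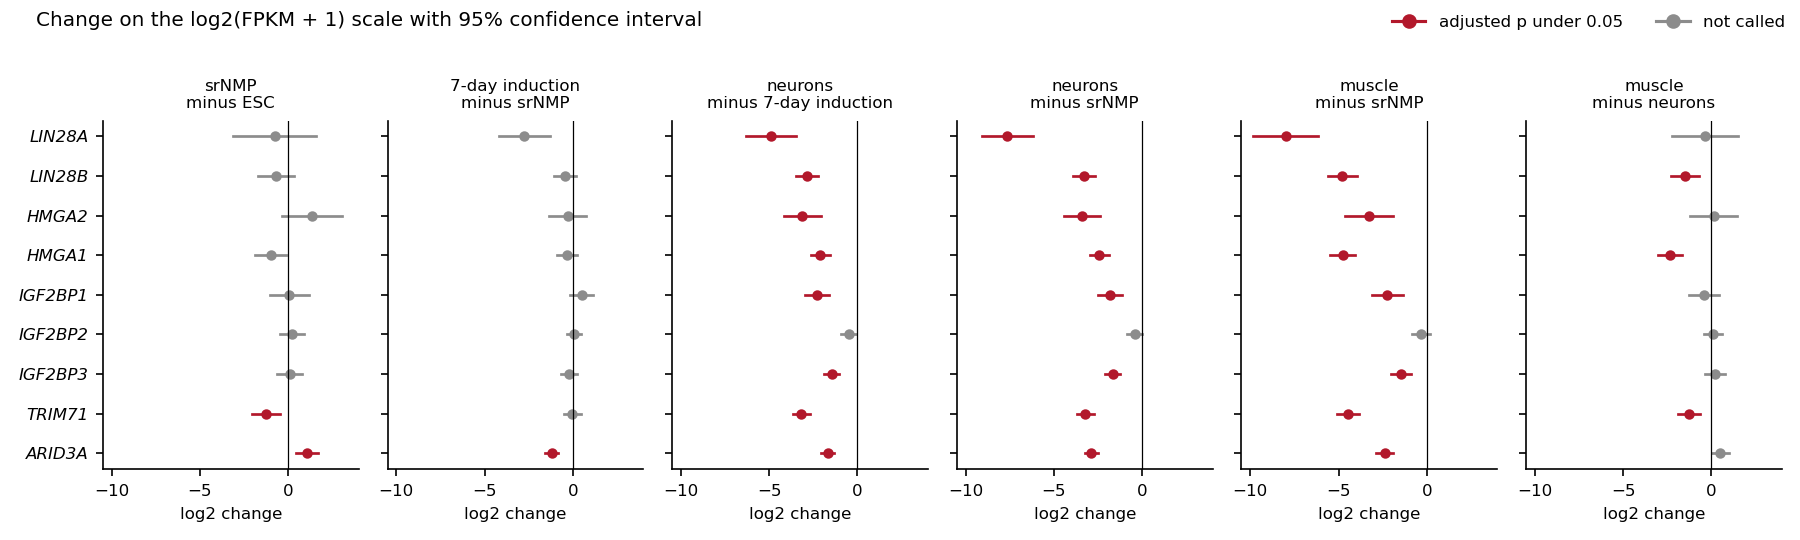
Change of each gene on the log2(FPKM + 1) scale in 6 comparisons, with 95% confidence intervals; red marks genes with an adjusted p under 0.05 in limma. Of the 9 genes, 8 lie below 0 and are called in neurons and in muscle relative to srNMPs, and IGF2BP2 is called in none.

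Counted over the comparisons, the axis as a set was lower in the differentiated cells. In neurons relative to srNMPs 8 of 9 genes fell and none rose, where limma called 52.1% of all genes in either direction and 23.2% as lower, and the median log2 change was -2.88 over the 9 genes and 0.05 over all genes. In neurons relative to 7-day cells 8 of 9 fell, against 37.8% of all genes called and 16.5% called lower (median -2.31, against 0.04 over all genes), with IGF2BP2 the gene that missed the threshold. Without both RASS libraries that count was also 8 of 9. In muscle relative to srNMPs 8 of 9 fell, against 49.8% of all genes called and 31.6% called lower (median -3.27, against -0.22 over all genes). These comparisons share the srNMP or neuron libraries and are not independent of each other. Dorsal HUES9 neurons were the neuron library highest in HMGA2, HMGA1, IGF2BP1, IGF2BP3 and, by little, TRIM71, but the lowest in LIN28A. They also had the highest proliferation sum among neurons, 593 FPKM against 125 to 211 FPKM in the other 3. All neuron libraries lay below the 740 to 941 FPKM of the srNMPs in that sum, and the part of proliferation in the falls of the 9 genes was not tested.

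In 3 other comparisons 1 to 3 of the 9 genes were called. In srNMPs relative to ESCs 2 of 9 genes were called, ARID3A higher and TRIM71 lower, where 16.7% of all genes were called (median 0.07 over the 9 genes and 0.07 over all genes). At 7 days relative to srNMPs 1 of 9 was called, ARID3A, against 3.43% of all genes (median -0.28, against 0.02 over all genes). In muscle relative to neurons 3 of 9 fell, LIN28B, HMGA1 and TRIM71, against 46.5% of all genes called and 31.9% called lower (median -0.36, against -0.34 over all genes). Muscle came from HUES9 alone. A fit of HUES9 libraries alone called 3 genes for muscle relative to neurons and 8 for muscle relative to srNMPs. That fit took the libraries of each state as replicates, so passages, inductions, neuron types and muscle days were pooled. It also held the RASS library labelled HUES9. The share of all genes called in it is not reported here.

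Passage, induction type, neuron type and cell line gave no call among the 9 genes. For passage 25 relative to passage 8, limma called 0% of all genes, and 0 of 9 genes had an unadjusted p under 0.05 (1.8% of all genes did), with log2 changes of -0.23 to 0.38. For RASS relative to RABC, limma called 0 of 9 genes against 0.517% of all genes, and 2 of 9 had an unadjusted p under 0.05 (8.54% of all genes). These 2 were ARID3A, with 11.2 and 11.4 FPKM in RASS and 5.42 and 4.15 FPKM in RABC (HUES9 and H1; change 1.09 ± 0.23, adjusted p = 0.151), and TRIM71, with 28.7 and 35.8 FPKM in RASS and 22.4 and 12.6 FPKM in RABC (change 0.89 ± 0.29, adjusted p = 0.387). For ventral relative to dorsal neurons, limma called 0 of 9 genes against 2.04% of all genes, and 0 of 9 had an unadjusted p under 0.05 (16.5% of all genes). For HUES9 relative to H1 it called 0% of all genes, and 0 of 9 had an unadjusted p under 0.05 (3.62% of all genes). That fit kept the RASS pair under the line labels it went against. The count of all genes with those labels exchanged is given in the last section. Among the 9 genes the largest change was that of HMGA2, 0.60 ± 0.36 (95% interval -0.25 to 1.45, adjusted p = 0.883). The intervals are wide, so these comparisons do not show that the levels are alike.

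Genes that make and use let-7 were called in both directions in neurons. The list held 16 genes, among them DROSHA and DICER1, which cut precursors, XPO5, which exports them from the nucleus, TUT4, TUT7 and DIS3L2, which tail and degrade them, and the AGO and TNRC6 genes of the silencing complex. In neurons relative to srNMPs 7 rose and 3 fell (median 0.45, against 0.05 over all genes), where 52.1% of all genes were called in either direction. AGO4, an Argonaute, averaged 14.6 ± 2.66 FPKM in neurons and 4.25 ± 0.793 FPKM in srNMPs (SD, n = 4 each; change 1.57 ± 0.17, limma, adjusted p = 0.00055), TNRC6C, a silencing scaffold, 9.75 ± 1.91 FPKM in neurons and 3.31 ± 1.67 FPKM in srNMPs (change 1.41 ± 0.32, adjusted p = 0.00915), and AGO1, another Argonaute, 18.9 ± 6.98 FPKM in neurons and 7.23 ± 2.91 FPKM in srNMPs (change 1.28 ± 0.34, adjusted p = 0.0182, and 0.0634 without the dorsal HUES9 library). DROSHA averaged 22.4 ± 0.872 FPKM in neurons and 22.3 ± 4.94 FPKM in srNMPs (change 0.03 ± 0.17, adjusted p = 0.884). The summed level of the list was lowest among srNMPs in the HUES9 library of passage 8, at 184 FPKM, and without that library 6 genes rose and 3 fell (median 0.22). Without the dorsal HUES9 library 4 rose and 3 fell.

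In muscle relative to srNMPs 1 gene of that list rose, AGO4, and 4 fell, where 49.8% of all genes were called (median -0.10, but 0.19 with equal totals and 0.02 with quantile normalization, so that its sign depends on the scaling). XPO5 averaged 10.7 ± 1.60 FPKM in muscle (n = 2) and 36.3 ± 8.87 FPKM in srNMPs (SD, n = 4; change -1.64 ± 0.28, limma, adjusted p = 0.00263), and KHSRP, a protein that promotes let-7 processing, 40.1 ± 4.33 FPKM in muscle and 105 ± 27.9 FPKM in srNMPs (change -1.24 ± 0.25, adjusted p = 0.0059). TARBP2, a partner of DICER1, fell by 1.05 ± 0.19 (adjusted p = 0.00343) and DROSHA fell by 0.69 ± 0.22 (adjusted p = 0.0352). The call of DROSHA was lost with equal totals (adjusted p = 0.298) and with quantile normalization (0.143), and that of KHSRP with quantile normalization (0.0558). Without the HUES9 srNMP library of passage 8, 6 genes of the list fell and 0 rose. At 7 days TUT4, which tails let-7 precursors bound by LIN28A, was the 1 gene of the list called, with 27.8 ± 8.39 FPKM in 7-day cells and 14.7 ± 3.86 FPKM in srNMPs (SD, n = 4 each; change 0.87 ± 0.17, adjusted p = 0.0446). That call was lost without the HUES9 srNMP library of passage 8 (adjusted p = 0.072), with equal totals (adjusted p = 0.0524) and without both RASS libraries (change 0.50, adjusted p = 0.365). The 7-day median of the list was 0.50, against 0.02 over all genes, and limma called 3.43% of all genes in that comparison. Of 6 host transcripts of let-7 loci that were looked for only HUWE1, host of MIR98 and MIRLET7F2, is in the table, with 32.9 ± 1.60 FPKM in neurons and 32.3 ± 15.7 FPKM in srNMPs (change 0.19 ± 0.37, adjusted p = 0.688).

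Other known let-7 target genes moved in both directions. Of 22 such genes outside the axis, 9 fell and 5 rose in neurons relative to srNMPs (median -0.48, against 0.05 over all genes), where 52.1% of all genes were called and 23.2% called lower, and with equal totals 7 fell and 7 rose. NR6A1, a nuclear receptor of early embryos, averaged 2.07 ± 0.163 FPKM in neurons and 14.8 ± 4.02 FPKM in srNMPs (SD, n = 4 each; change -2.33 ± 0.20, limma, adjusted p = 0.000272), and ARID3B, the paralog of ARID3A, 5.51 ± 1.26 FPKM in neurons and 24.2 ± 7.63 FPKM in srNMPs (change -1.91 ± 0.23, adjusted p = 0.000725). INSR, the insulin receptor, went the other way, with 6.22 ± 0.528 FPKM in neurons and 0.634 ± 0.401 FPKM in srNMPs (change 2.17 ± 0.16, adjusted p = 0.000184). HIC2, a transcriptional repressor, had a change of -0.59 ± 0.23 (adjusted p = 0.0697). Of 21 of the 22 with a UTR in the annotation, 15 held a seed match. NR6A1, ARID3B and HIC2 were among them, and INSR held none in the transcript searched.

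In muscle relative to srNMPs 10 of the 22 fell and 2 rose (median -0.66, against -0.22 over all genes), where 49.8% of all genes were called and 31.6% called lower, so that the share called is near that of all genes. MYCN, a growth-promoting transcription factor, averaged 2.77 ± 0.742 FPKM in muscle (n = 2) and 46.1 ± 5.76 FPKM in srNMPs (SD, n = 4; change -3.63 ± 0.38, limma, adjusted p = 0.000329), and CDC25A, a cell-cycle phosphatase, 2.68 ± 0.0555 FPKM in muscle and 20.5 ± 2.04 FPKM in srNMPs (change -2.62 ± 0.28, adjusted p = 0.000332). NR6A1 fell by 3.18 ± 0.26 (adjusted p = 9.99e-05) and HIC2 fell by 1.15 ± 0.30 (adjusted p = 0.0171). CDC25A, NR6A1 and HIC2 held seed matches in their UTRs, and MYCN held none in the transcript searched. In the same comparisons, relative to srNMPs, 7 of 8 proliferation markers fell in neurons and 7 of 8 in muscle (medians -1.80 and -2.85), where 23.2% of all genes were called lower in neurons and 31.6% in muscle. In srNMPs relative to ESCs 3 of the 22 fell, among them MYC and ARID3B, and none rose, where 16.7% of all genes were called.

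**Figure D5:**
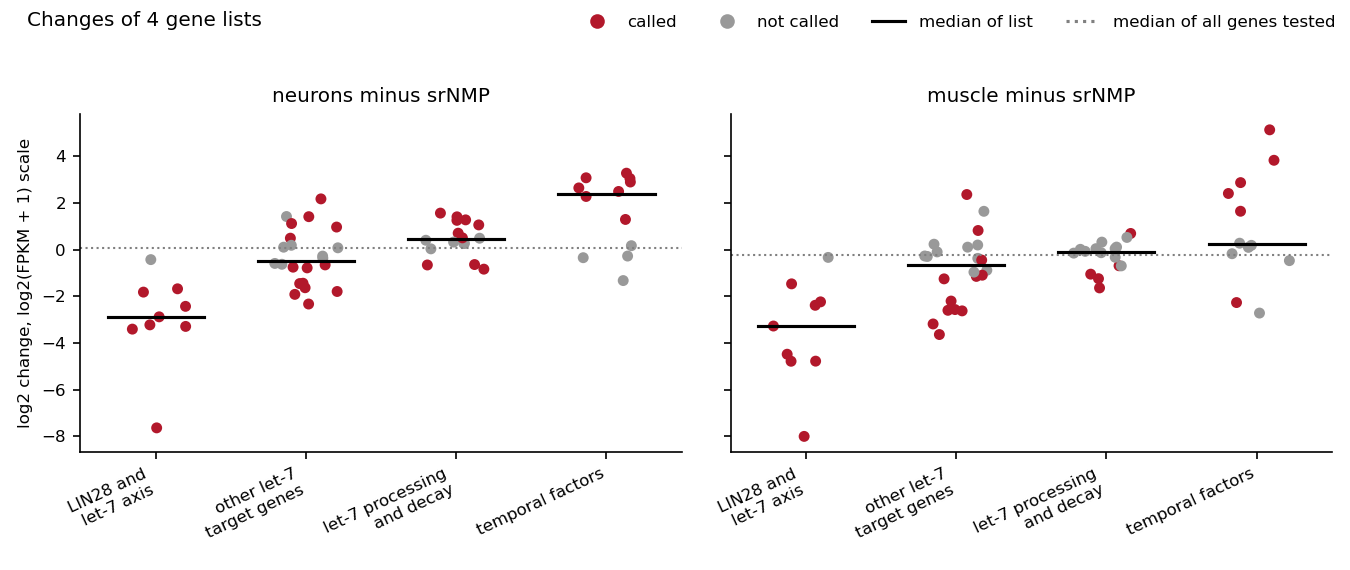
Change of each gene of 4 lists (log2(FPKM + 1) scale) in neurons and in muscle relative to srNMPs; red points are called, black bars are list medians and the dotted line is the median of all genes tested. The axis has medians of -2.88 in neurons and -3.27 in muscle, against 2.38 and 0.23 for the temporal factors.

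Transcripts that IGF2BP proteins are known to bind were called in both directions. Of 5 tested, 2 rose and 1, ACTB, fell in neurons, and 3 rose and 1 fell in muscle relative to srNMPs, where 52.1% and 49.8% of all genes were called. ACTB, a cytoskeletal actin, averaged 1626 ± 230 FPKM in neurons and 2356 ± 285 FPKM in srNMPs (change -0.54, limma, adjusted p = 0.0225), with a change of -0.21 under equal totals and 0.40 under quantile normalization. IGF2, a growth factor of embryonic mesoderm, stood at 801 and 1169 FPKM in the muscle libraries of days 40 and 50, and at 12.2 to 38.7 FPKM in srNMPs (change 6.22 ± 0.93, limma, adjusted p = 0.00157). In neurons it ranged from 0.813 to 28.9 FPKM (change -1.82 ± 0.72, adjusted p = 0.0699). CD44, a surface adhesion receptor, averaged 17.0 ± 3.34 FPKM in muscle (n = 2) and 0.190 ± 0.0945 FPKM in srNMPs (SD, n = 4; change 3.84 ± 0.14, adjusted p = 1.13e-06). MYC, a growth-promoting transcription factor, averaged 10.1 ± 3.36 FPKM in muscle and 1.09 ± 0.822 FPKM in srNMPs (change 2.36, adjusted p = 0.000554). Fibroblast markers were high in those muscle libraries too, as given above.

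Temporal transcription factors mark early-born and late-born spinal neurons. Of 12, 8 rose and none fell in neurons relative to srNMPs (median 2.38, against 0.05 over all genes), where 52.1% of all genes were called in either direction, and the count was the same with equal totals and with quantile normalization. NFIA, a late factor that also starts glial genes, ranged from 6.16 to 17.4 FPKM in neurons and from 0.0191 to 0.0571 FPKM in srNMPs (change 3.27 ± 0.24, limma, adjusted p = 0.000179), and NFIB, its paralog, from 4.44 to 13.6 FPKM in neurons and from 0.137 to 0.441 FPKM in srNMPs (change 3.08 ± 0.28, adjusted p = 0.000314). NEUROD2, a late neuronal factor, ranged from 1.18 to 15.1 FPKM in neurons and was listed at 0 to 0.00957 FPKM in srNMPs (change 3.05 ± 0.49, adjusted p = 0.00224). ONECUT1, an early factor, averaged 2.74 ± 2.09 FPKM in neurons and 12.2 ± 12.4 FPKM in srNMPs (SD, n = 4 each; change -1.32 ± 0.84, adjusted p = 0.225). In neurons relative to 7-day cells 5 of the 12 rose and 1 fell, where 37.8% of all genes were called. In muscle relative to srNMPs 5 of the 12 rose and 1 fell (median 0.23, against -0.22 over all genes), where 49.8% of all genes were called, led by NFIX, which regulates fetal muscle genes, at 38.5 and 44.9 FPKM in muscle and 0.00863 to 0.0746 FPKM in srNMPs (change 5.13 ± 0.50, adjusted p = 0.000222). NFIB and NFIA rose there as well, by 3.83 and 2.87 on the log2 scale.

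The 9 genes also ran in parallel across libraries. Pearson's r of log2(FPKM + 1) over the 15 libraries ranged from 0.56 to 0.98 between pairs of the 9 (median 0.88) and was highest for LIN28B and TRIM71. The closest other genes at 5 FPKM or more in some library were RNPEP (r = 0.984) and HSP90AB1 (0.983) for LIN28A, PRMT5 (0.98), RTCB (0.979) and NR6A1 (0.977) for LIN28B, and CPSF2 (0.979), PRMT5 (0.974) and PPP2R1B (0.972) for TRIM71. They were FDPS (0.972), TMEM123 (0.968) and C18orf54 (0.963) for HMGA2, and TKT (0.982), UCK2 (0.981) and SRPK1 (0.98) for HMGA1. For the IGF2BP genes they were EXOSC10 (0.982), SMARCC1 (0.981) and NUP62 (0.98) for IGF2BP1, MYH10 (0.925), ACACA (0.891) and SHKBP1 (0.888) for IGF2BP2, and HMMR (0.962), ANLN (0.96) and AASS (0.959) for IGF2BP3. For ARID3A they were PMEL (0.955), SNRNP48 (0.953) and AIFM1 (0.941). The 15 points fall into 5 states that many genes separate, so the r values are descriptions and carry no p.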

How the data were processed

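Polyadenylated RNA of 15 cultures was sequenced after a TruSeq Stranded mRNA preparation, per the labels. The authors deposited 1 table of FPKM values per gene symbol. Trimmomatic, HISAT2, HTSeq, Cufflinks and the build hg18 are named, per the submitters' processing notes; versions and strand use in counting are not given in the sources used here. In the table, 1 column of values matched no sample and was not used.

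Values were taken as listed, symbols that never reached 1 FPKM were dropped, and log2(FPKM + 1) was fitted with limma 3.58.1 in R 4.3.3. The fit held 9 group means and the cell line as a block, since both cell lines occur, per the labels, in 6 groups, with a variance trend, 5 residual degrees of freedom and 2.16 prior ones. P-values were two-sided and adjusted over all genes by Benjamini and Hochberg, and intervals were set at 95%. The procedure was tried on simulated data for neurons relative to srNMPs only, with the line labels taken as correct. The check was on the sign and size of the changes put in, and comparisons with ESCs or muscle were not simulated. Relative depth was estimated from whole-number steps in 23782 values of at most 0.1 FPKM in 3947 genes. After scaling, 86.41% of the values were whole multiples of their gene's lowest value within 2%. The lowest value of each gene is whole by construction, and the scaling used the same values. That share therefore does not test the estimate.

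The 9 genes, the other lists and the tests were chosen with earlier results of these data known. From each other list the first gene and up to 3 called genes of largest change, at 5 FPKM or more in the higher group, were named. Alternatives changed the pseudocount, filter, scaling, variance trend, libraries fitted, block and each library in turn; exchanging or leaving out the RASS libraries, and counting lists without single libraries, were added after seeing the data. For each of the 9 genes up to 3 other genes of highest correlation were named; some genes that these rules pick are not reported here.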

Additional observations from a re-analysis of the deposited data

Results flagged for a closer look

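Among 27 groups of 4 libraries (9 genes in srNMPs, 7-day cells and neurons), 3 held a library far from the other 3. Chance gives about 1 in 20 for 4 libraries of the same kind. Here the 4 differ in cell line and in passage, induction or neuron type, and the genes share libraries. That rate is therefore only a rough guide. LIN28B stood at 37.7 FPKM in H1 srNMPs of passage 8, against 27.4 to 28.7 FPKM in the other srNMPs. ARID3A stood at 23.9 FPKM in H1 srNMPs of passage 25, against 16.2 to 17.0 FPKM in the others. IGF2BP3 stood at 22.3 FPKM in HUES9 dorsal neurons, against 13.9 to 15.1 FPKM in the other neurons.

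In 27 comparisons made within each cell line, 2 changed by over 1 on the log2 scale in opposite directions in the 2 lines, a difference that was not tested. LIN28A differed between RASS and RABC by 2.14 in H1 (72.4 FPKM in RASS and 15.7 FPKM in RABC) and by -2.20 in HUES9 (21.3 FPKM in RASS and 101 FPKM in RABC), and the RASS libraries are those that went against their line labels. HMGA2 differed between ventral and dorsal neurons by 1.48 in H1 (7.57 FPKM in ventral and 2.06 FPKM in dorsal) and by -1.36 in HUES9 (5.73 FPKM in ventral and 16.2 FPKM in dorsal).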

How the results depend on the processing

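The counts of 8 genes called lower in neurons relative to srNMPs, in neurons relative to 7-day cells and in muscle relative to srNMPs were 8 to 9 when any 1 library was left out, and 3 to 4 for muscle relative to neurons. The added gene was IGF2BP2 where the HUES9 srNMP library of passage 8 was left out of the comparisons with srNMPs. With only the compared libraries, IGF2BP1 and IGF2BP3 lost their calls for muscle relative to srNMPs. LIN28B then lost its call for muscle relative to neurons, and IGF2BP2 gained one for neurons relative to 7-day cells. In srNMPs relative to ESCs the count of 2 ranged from 0 to 2 over left-out libraries; it was 0 with a pseudocount of 0.1, with quantile normalization and with only the compared libraries, and 1 without a filter, with equal totals, with HUES9 libraries only and without both RASS libraries. At 7 days relative to srNMPs the count of 1 ranged from 0 to 2 over left-out libraries, was 0 with only the compared libraries and without both RASS libraries, and was 2 with the RASS lines exchanged; the causes were not tested. Without the replicate block it was 2, with LIN28A called too (adjusted p = 0.0364), the count for neurons relative to 7-day cells was 9, and the other counts were the same as with the block. Among the 9 genes no called log2 change reversed. The count of all genes called at 7 days was 484, and 45 to 2281 over left-out libraries. For HUES9 relative to H1 it was 0, and 147 with the RASS lines exchanged. Equal totals moved the median change of all genes in neurons relative to srNMPs to 0.29, against 0.05 as listed, and in muscle relative to srNMPs to -0.01, against -0.22. Absolute depth is unknown, so values under 1 FPKM have no counting error here.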
